A study of Mus musculus with 10 samples.

Results

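The genes described are the class III receptor tyrosine kinases Kit, Flt3, Csf1r, Pdgfra and Pdgfrb and the ligands Kitl, Flt3l and Csf1, 8 genes among 18194 named on the array. Every probe set annotated to 1 of these genes alone was taken, which gave 19 probe sets for 7 genes. The only probe set listed for Flt3l is also listed for the ribosomal protein gene Rpl13a, so no value can be given to Flt3l.

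Class III receptors carry immunoglobulin-like domains outside the cell and a kinase domain split by an insert inside it. A dimeric ligand joins a pair of receptors, which phosphorylate each other and signal through RAS and PI3-kinase. Kit, the receptor for stem cell factor (the product of Kitl), is known for its role in stem, progenitor and mast cells. Flt3, the receptor for Flt3 ligand, acts in early multipotent, lymphoid and dendritic cell progenitors, while Csf1r binds macrophage colony-stimulating factor (the product of Csf1) on monocytes and macrophages. Pdgfra and Pdgfrb, the receptors for platelet-derived growth factors, are best known from fibroblasts, pericytes and other mesenchymal cells.

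RNA came from mouse leukemia stem cell lines made ex vivo and was hybridised to 10 Affymetrix mouse expression arrays, 1 per sample. The RH-RAS lines coexpress DNMT3A with the R882H change and NRAS with the G12D change, and 4 independently derived, untreated lines were measured. RH-RAS lines 1 and 3 were measured again after 4 days with 1 µM SGC0946, an inhibitor of the histone methyltransferase Dot1l. The other samples were progenitors transformed by a fusion oncogene, MLL-AF9 in 1 line and NUP98-JARID1A in 3. All lines grew in medium with serum and stem cell factor, so the ligand of Kit was supplied in every group. The sources used here give neither age and strain of the source animals nor any vehicle for the untreated cultures, and apart from the RH-RAS lines nothing says that lines were derived separately. For those lines p-values measure only the spread between the samples.

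The values are log2 intensities after RMA. They ran from 2.21 to 14.8 on the 10 arrays, and array medians lay between 5.72 and 5.82. Intensities of different probe sets are not compared with each other. The leukocyte marker Ptprc lay between 12.3 and 13.1 on every array, while 8 of 9 fibroblast markers lay below the array median on each array. Untreated line 4 stood apart from lines 1 to 3 in the monocyte and macrophage markers, and calls that turn on it are given with and without it.

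Kit and Flt3, whose intensities were lower in the inhibitor-treated arrays, both lie on mouse chromosome 5. The 250 bases upstream of their first RefSeq start (GRCm38.p6) are shown, 5′ to 3′ along each gene, because Kit and Flt3 are set beside the transcription factors described further on. They cover chr5:75574737-75574986 on the plus strand for Kit and chr5:147400490-147400739 on the minus strand for Flt3. Kit has 2 listed starts, of which only the first was searched, and the promoter set used held no window for Csf1r. Both strands were searched for GAGGAA, the core bound by ETS factors like PU.1, and for AGATAA, bound by GATA factors. TGTGGT, bound by RUNX factors, and the E-box CANNTG were searched as well. So was TGATTNAT, taken as a site of HOX proteins with a cofactor, and capitals mark the matches.
Kit: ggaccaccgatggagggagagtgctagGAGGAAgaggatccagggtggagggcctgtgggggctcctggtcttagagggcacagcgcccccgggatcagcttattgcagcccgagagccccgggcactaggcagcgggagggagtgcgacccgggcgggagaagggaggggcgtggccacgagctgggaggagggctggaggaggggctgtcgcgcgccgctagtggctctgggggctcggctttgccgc
Flt3: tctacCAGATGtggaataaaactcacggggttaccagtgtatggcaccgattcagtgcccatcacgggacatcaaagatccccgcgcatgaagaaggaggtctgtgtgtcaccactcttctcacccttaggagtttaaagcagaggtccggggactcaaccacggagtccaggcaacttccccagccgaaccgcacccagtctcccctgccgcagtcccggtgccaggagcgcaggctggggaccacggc
The Kit window held 1 match to GAGGAA, from 223 to 218 bases upstream of the start, and 23.3% of 32851 promoter windows of this length held that motif. The Flt3 window held 1 E-box, from 245 to 240 bases upstream, a motif present in 66.2% of windows. The other 3 motifs were in neither window. AGATAA was in 9.99% of all windows, TGTGGT in 14.0% and TGATTNAT in 2.82%. A match is a run of letters and says nothing about binding.

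The receptors were described first by their level on each array. Kit was measured by 2 probe sets. On probe set 1452514_a_at its log2 intensity was 10.52, 10.40, 10.71 and 9.91 in untreated RH-RAS lines 1 to 4, 8.71 and 8.56 in treated lines 1 and 3, 11.39 in MLL-AF9 and 11.94, 12.27 and 11.98 in NUP98-JARID1A lines 1 to 3. The groups did not overlap, and their order from high to low was NUP98-JARID1A, MLL-AF9, untreated RH-RAS and treated RH-RAS. On probe set 1415900_a_at the untreated RH-RAS lines were at 7.66, 7.41, 7.68 and 7.19, the treated lines at 5.90 and 5.85, MLL-AF9 at 6.95 and the NUP98-JARID1A lines at 9.70, 9.79 and 9.47. Here MLL-AF9 lay below all 4 untreated RH-RAS lines, so the probe sets of Kit placed it on opposite sides of them. The NUP98-JARID1A lines were highest and the treated lines lowest on both probe sets.

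Flt3 was measured by the single probe set 1419538_at. Its log2 intensity was 12.45, 12.48, 12.29 and 12.38 in the untreated RH-RAS lines, 11.47 and 11.34 in the treated lines, 10.13 in MLL-AF9 and 9.89, 11.03 and 10.06 in the NUP98-JARID1A lines. The untreated RH-RAS lines were highest, the treated lines came next, and MLL-AF9 fell inside the range of the NUP98-JARID1A lines. Among those, line 2 lay nearest to the treated RH-RAS arrays.

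Csf1r had the widest range of the 3 blood cell receptors. On probe set 1419872_at its log2 intensity was 7.87, 7.77 and 7.71 in untreated RH-RAS lines 1 to 3 but 10.13 in line 4. It was 12.67 and 12.71 in the treated lines, 10.95 in MLL-AF9 and 11.41, 11.64 and 12.38 in the NUP98-JARID1A lines. The treated arrays were above every other array, and NUP98-JARID1A line 3 came nearest to them. The other probe sets, 1419873_s_at and 1423593_a_at, gave the same order of groups, from means of 7.55 ± 0.80 and 7.16 ± 0.78 in untreated RH-RAS (SD, n = 4) to 11.42 ± 0.04 and 10.96 ± 0.11 in treated RH-RAS (SD, n = 2).

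**Figure D1:**
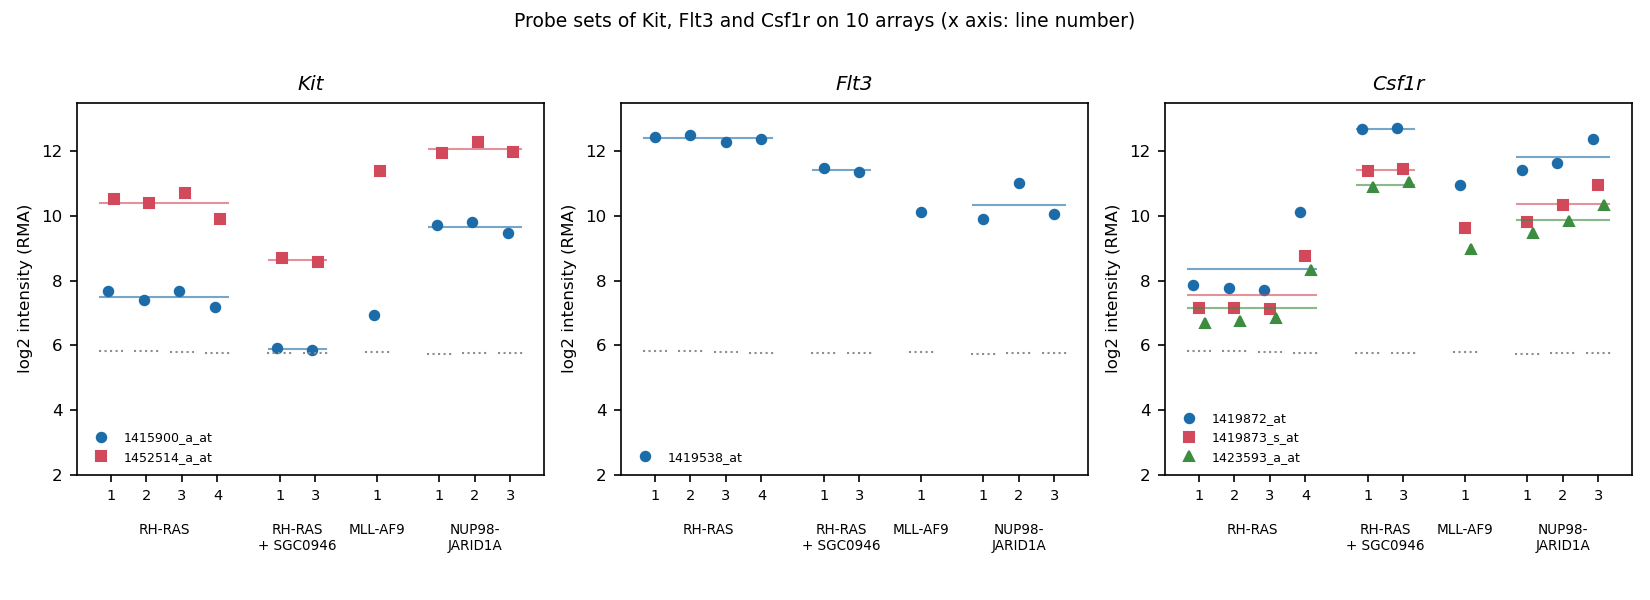
Log2 RMA intensity (y axis) of each probe set of Kit, Flt3 and Csf1r on the 10 arrays, by group and line number (x axis); horizontal lines are group means and grey dotted lines the median of each array. Csf1r in untreated line 4 (10.13 on probe set 1419872_at) sits between lines 1 to 3 and the treated arrays, and the 2 Kit probe sets place MLL-AF9 on opposite sides of the untreated RH-RAS lines.

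The platelet-derived growth factor receptors were near or below the array median. All 3 probe sets of Pdgfra lay below the median of every array, between 3.36 and 5.02 over 10 arrays. Pdgfra was therefore not tested. Pdgfrb differed between its 2 probe sets. On 1417148_at it was between 5.39 and 5.98 on the RH-RAS and MLL-AF9 arrays and 7.44, 6.03 and 6.03 in NUP98-JARID1A lines 1 to 3, so line 1 stood above the rest. On 1436970_a_at it was 5.76, 5.95 and 6.20 in untreated RH-RAS lines 1 to 3, 3.49 in line 4, 2.69 and 3.06 in the treated lines, 5.96 in MLL-AF9 and 8.69, 6.48 and 3.83 in the NUP98-JARID1A lines. This probe set ran from 2.69 to 8.69 with no common level within the NUP98-JARID1A group (SD 2.44, n = 3).

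Of the ligands, Kitl gave no value above the median of any array on its 4 probe sets, which lay between 2.86 and 5.35. None of them varied by more than 0.62 over the 10 arrays. Csf1 was measured by 4 probe sets. On 1460220_a_at it was 5.67, 5.78, 5.82 and 5.34 in the untreated RH-RAS lines, 5.67 and 5.49 in the treated lines, 6.98 in MLL-AF9 and 7.72, 7.93 and 8.08 in the NUP98-JARID1A lines. The RH-RAS arrays overlapped with and without the inhibitor, MLL-AF9 lay between, and the NUP98-JARID1A lines were above all other arrays. On the other 3 probe sets the NUP98-JARID1A mean was also the highest, at 6.67 ± 0.39, 5.15 ± 0.34 and 6.96 ± 0.46 (SD, n = 3) against 5.94 ± 0.06, 4.09 ± 0.15 and 5.88 ± 0.27 in untreated RH-RAS (SD, n = 4). MLL-AF9 at 6.29 lay above NUP98-JARID1A line 1 at 6.22 on 1425154_a_at.

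**Figure D2:**
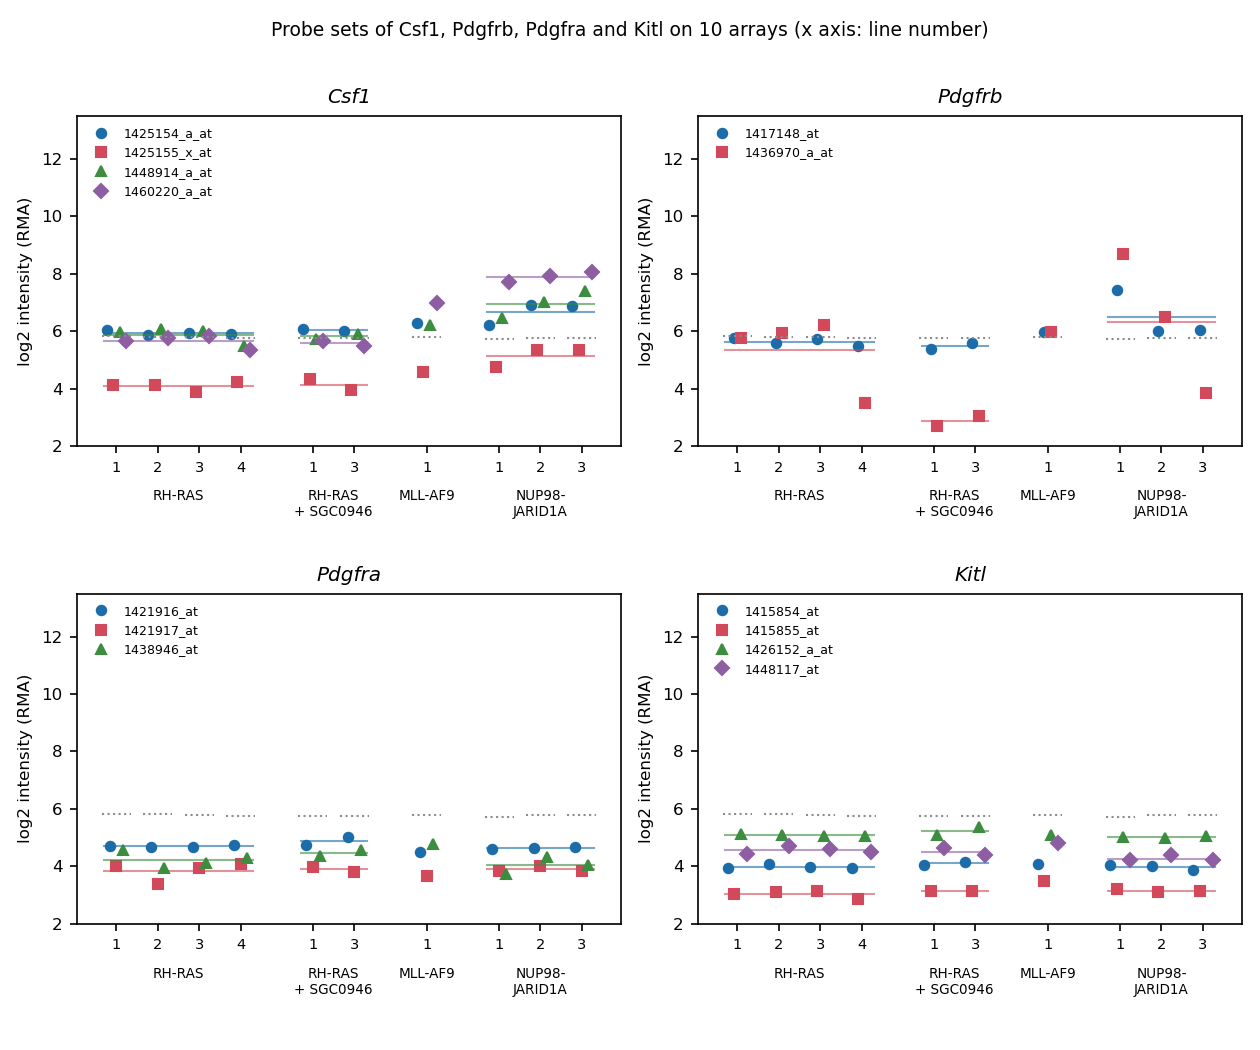
Log2 RMA intensity (y axis) of each probe set of Csf1, Pdgfrb, Pdgfra and Kitl on the 10 arrays, by group and line number (x axis), with group means as horizontal lines and each array's median as a grey dotted line. Csf1 on probe set 1460220_a_at rises to between 7.72 and 8.08 in NUP98-JARID1A, the Pdgfrb probe sets disagree, and Pdgfra and Kitl stay below the array median throughout.

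The first comparison asks how Dot1l inhibition changed these genes in RH-RAS lines 1 and 3. Csf1r rose, Kit fell, and Flt3 was lower without passing the test. Csf1r rose by 4.90 ± 0.67 on the log2 scale, or 29.9-fold (SE, n = 2 arrays on each side, limma adjusted p = 0.00669), with changes of 4.80 in line 1 and 5.01 in line 3. Its other probe sets rose by 4.27 ± 0.51 and 4.19 ± 0.47 (limma adjusted p = 0.00529 and 0.00456 over all probe sets). Kit fell by 1.98 ± 0.19, or 3.94-fold (adjusted p = 0.00347), at −1.81 in line 1 and −2.15 in line 3, and by 1.80 ± 0.14 on its other probe set (adjusted p = 0.00190).

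Flt3 was at −0.96 ± 0.33 (limma adjusted p = 0.112), with changes of −0.98 and −0.95 in lines 1 and 3. The treated and untreated arrays did not overlap. Its SE draws on all groups, and the NUP98-JARID1A lines had an SD of 0.61 against 0.08 among the untreated RH-RAS lines. Without NUP98-JARID1A line 2 the same change gave an adjusted p of 0.00508, with the RH-RAS arrays alone 0.00229, and with all 4 untreated lines as the control 0.0410. Over all alternatives its adjusted p ran from 0.00229 to 0.379.

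Among the other receptors and ligands, Pdgfrb was at −0.26 ± 0.44 (adjusted p = 0.777) on 1417148_at. On 1436970_a_at it was at −3.07 in line 1 and −3.14 in line 3, a change of −3.10 ± 1.41 that did not pass either (adjusted p = 0.221). Csf1 was at −0.17 ± 0.18 (adjusted p = 0.629). Pdgfra, Kitl and Flt3l were not tested. Of the 5 members tested, 1 rose and 1 fell, where 6.84% of all 11993 genes tested rose, 5.12% fell and 12.0% were called in all. A fit blocked on RH-RAS cell line called 844 genes in place of 1434, Kit and Csf1r among them. It has 3 residual degrees of freedom, 2 of them from the spread of the NUP98-JARID1A lines, so a call lost in it is not shown to come from the pairing. By probe set, 3 of the 11 tested rose and 2 fell, where 5.17% of all probe sets rose, 4.53% fell and 9.70% were called in all. The members' median was −0.26 and that of all genes 0.02.

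The calls rest on few arrays. The SE of Csf1r draws on all groups, and untreated lines 2 and 4, which are outside the contrast, were at 7.77 and 10.13. Leaving out untreated line 4 kept the change at 4.90 and brought its SE from 0.67 to 0.30. Without any 1 of the 4 arrays in the contrast, Csf1r changed by 4.82 to 4.99 but missed the threshold (adjusted p = 0.0561 and 0.0654 without untreated line 1 and 3, 0.0616 and 0.0708 without treated line 1 and 3), and Kit missed it without treated line 3 (−1.90, adjusted p = 0.0537), each time with the lone array taken to vary like the other groups.

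Most markers of monocytes and macrophages rose, as Csf1r did and Kit did not, and most neutrophil markers did not pass the test. Of 10 monocyte and macrophage markers tested, 8 rose with the inhibitor (9 without untreated line 4) and none fell. Of all genes tested 6.84% rose and 5.12% fell. The mean level of these markers was 7.30 to 7.34 in untreated lines 1 to 3, 8.46 in line 4 and 10.4 to 10.5 in the treated arrays, where all 10 lay above the array median. Mrc1 averaged 9.61 in the treated arrays against 4.82 in untreated RH-RAS, 4.85 in NUP98-JARID1A and 3.92 in MLL-AF9. Its entry into the test thus leaned on the arrays where it was high. Of 9 neutrophil markers 1 rose, the collagenase gene Mmp8, and their mean was 5.63 to 5.83 in the untreated and 5.96 to 5.99 in the treated RH-RAS arrays. Of 7 stem and progenitor markers tested, 4 fell (Cd34, Angpt1, Myb and Meis1) and none rose. The mean of the mast cell markers, which belong to another Kit-bearing cell, was 5.01 to 5.23 in the untreated and 4.92 to 4.96 in the treated RH-RAS arrays, with at most 3 of 8 above the array median, and of 3 tested 1 fell. It was Cpa3, a mast cell protease gene (−2.24, limma adjusted p = 0.0345, and 0.0623 when blocked on cell line), named here after its value was seen. These arrays measured RNA in bulk, so fewer cells of a type and less RNA per cell cannot be told apart, and the part of these markers in the receptor changes was not tested.

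The next comparison sets the 3 NUP98-JARID1A lines against the 4 untreated RH-RAS lines. Kit, Csf1r and Csf1 were higher and Flt3 lower in NUP98-JARID1A. Kit was higher by 1.68 ± 0.19 on the log2 scale (SE, n = 3 and 4; limma adjusted p = 3.9e-04), and by 2.17 ± 0.15 on its other probe set. Csf1r was higher by 3.44 ± 0.61 (adjusted p = 0.00280), and by 2.81 ± 0.45 and 2.73 ± 0.42 on the others. Flt3 was lower, at −2.07 ± 0.25 (adjusted p = 5.5e-04), or 4.20-fold.

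Csf1, the ligand of Csf1r, was higher by 2.26 ± 0.14, or 4.78-fold (limma adjusted p = 3.8e-05). That value is from 1460220_a_at, where only untreated line 3 of the RH-RAS arrays exceeded its median (5.82 against 5.80). The probe set thus entered the test through the MLL-AF9 and NUP98-JARID1A arrays, and the size depends on a dim level. Csf1 probe sets 1425154_a_at and 1448914_a_at gave 0.72 ± 0.17 and 1.08 ± 0.23 (limma adjusted p = 0.00907 and 0.00628). Of these, 1425154_a_at lay above the median on all 10 arrays. The direction was shared by all Csf1 probe sets and the size was not. Receptor and ligand were thus both higher in these lines, while in inhibitor-treated RH-RAS only the receptor had passed the test and the difference between the comparisons was not tested.

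Pdgfrb was at 0.86 ± 0.34 and did not pass (limma adjusted p = 0.0680). Without NUP98-JARID1A line 1 it was at 0.39 and passed (adjusted p = 0.0238), and it also passed without line 2 (0.0427), without line 3 (0.0462) and with all 10 arrays in the fit (0.0477). Its probe set entered the test because only the MLL-AF9 and NUP98-JARID1A arrays lay above their medians. Of the 5 members tested, 3 were higher and 1 lower, but 32.5% of all genes tested were higher, 18.5% lower and 51.0% called in all. By probe set 8 of 11 were higher and 1 lower, where 27.4% of all probe sets were higher, 24.8% lower and 52.2% called in all. A call in this comparison is common, and the size and order of the values say more than the count. The members' median was 1.68 and that of all genes 0.10.

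**Figure D3:**
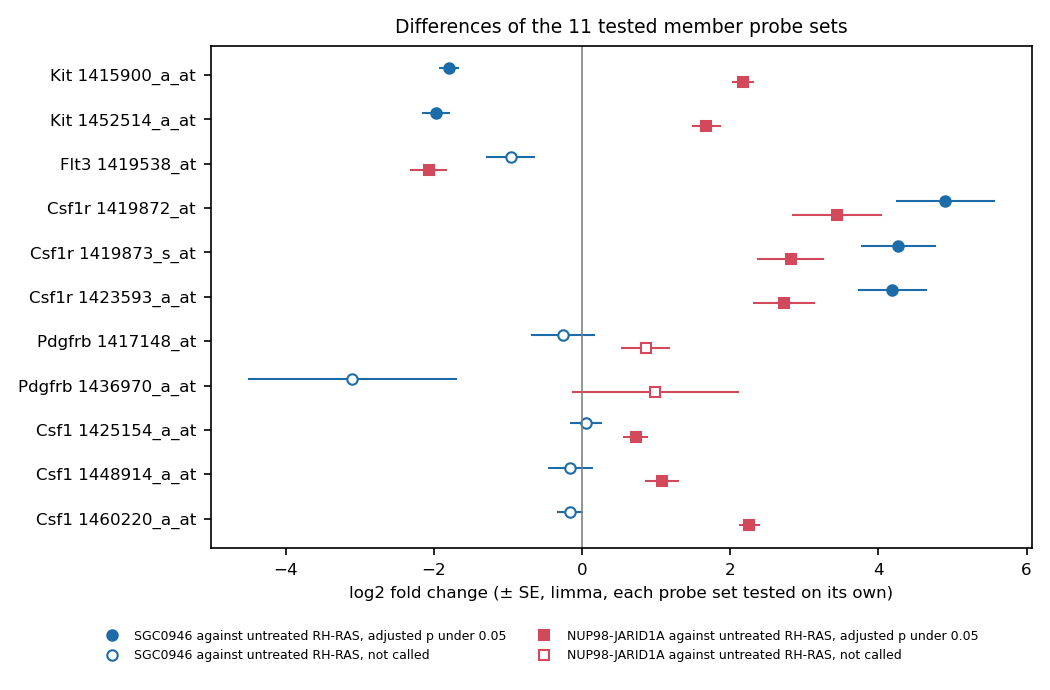
Log2 fold change (x axis, ± SE, limma with each probe set tested on its own) of the 11 tested probe sets of Kit, Flt3, Csf1r, Pdgfrb and Csf1, with circles for SGC0946-treated against untreated RH-RAS lines 1 and 3 and squares for NUP98-JARID1A against untreated RH-RAS; filled symbols passed an adjusted p of 0.05. Kit lies at −1.98 and 1.68 in the 2 comparisons, Csf1r is above 0 in both, and Flt3 is below 0 in both and filled in the second.

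Both comparisons share untreated lines 1 and 3, so their likeness is not a result. Side by side, Kit was at −1.98 and 1.68, Flt3 at −0.96 and −2.07, Csf1r at 4.90 and 3.44 and Csf1 at −0.17 and 2.26 with the inhibitor and in NUP98-JARID1A. Leaving untreated line 4 out of the second comparison raised Csf1r to 4.03. The group mean of Csf1r was 0.88 higher in treated RH-RAS than in NUP98-JARID1A, that of Flt3 1.08 higher and that of Kit lower, at −3.43, and the arrays of these groups did not overlap in any of the 3.

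Other markers differed between the NUP98-JARID1A and RH-RAS lines too. All 9 neutrophil markers were higher, with a mean level of 10.2 to 12.9 against 5.63 to 5.83 in untreated RH-RAS. Only 1 of the 9 lay above the array median on each untreated RH-RAS array, and 2 on each treated one. The others entered the test through the MLL-AF9 and NUP98-JARID1A arrays, so they had to differ. Of all genes tested 32.5% were higher and 18.5% lower. Of the 10 monocyte and macrophage markers tested, 4 were higher (Adgre1, Cd68, Lyz2 and Itgam) and 1 lower, Fcgr1 (5 and 1 without untreated line 4, with Cd14 added), and their mean level was 8.82 to 9.61. Of 7 stem and progenitor markers 3 were higher (Hlf, Cd48 and Gata2) and none lower, with means of 9.66 to 10.2 against 9.17 to 9.31, and of 3 dendritic cell markers tested 2 were lower, Siglech and Batf3. Of 3 mast cell markers tested 1 was higher, Hdc, which makes histamine. Another, Cpa3, was at −0.92 and did not pass (limma adjusted p = 0.107), but was called lower without untreated line 4 (0.0365). Of 3 endothelial markers 2 were higher, Pecam1 and Vwf. Hlf and Vwf averaged 5.35 and 3.65 in untreated RH-RAS against 6.44 and 7.37 in NUP98-JARID1A. Outside NUP98-JARID1A both lay below the array median, so they entered the test through that group and had to differ. Single markers are named after their values were seen. Mean levels of the mast cell list were 5.31 to 5.57, with 2 of 8 above the array median. Their part in the receptor levels was not tested.

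MLL-AF9 has 1 array and no test. Flt3 lay 2.27 below the untreated RH-RAS mean and Csf1r 2.58 above it, each outside the RH-RAS range. Differences of at least 2 outside that range were found for 4.35% of genes, 2.62% upward and 1.73% downward. The other Csf1r probe sets gave 2.07 and 1.83. Kit was 1.01 above on 1452514_a_at and at −0.54 on 1415900_a_at, and Csf1 was 1.33 above on 1460220_a_at. On that array Kit lay below NUP98-JARID1A on both probe sets, at −0.67 and −2.71 from their mean, Csf1r at −0.86 and Flt3 at −0.20, which is inside their range. The neutrophil markers had a mean of 11.4 in MLL-AF9, with 9 of 9 above the array median where untreated RH-RAS had 1. The monocyte and macrophage markers had a mean of 8.01 and the mast cell markers one of 5.91, the highest of the 10 arrays. The part of these markers was not tested.

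Untreated RH-RAS line 4 differed from lines 1 to 3 in the receptors. Csf1r was 2.35 above the mean of lines 1 to 3 (1.60 and 1.55 on the other probe sets), a distance of 1 or more that 0.867% of genes showed upward. Kit was at −0.63 and −0.39 on its probe sets, Pdgfrb at −2.48 on 1436970_a_at and Flt3 at −0.03. In Kit and Csf1r it stood between the treated arrays and the other untreated ones, as in 25.1% of all genes tested. Flt3 in line 4 was inside the range of lines 1 to 3. This is 1 array, so the spread of such a line is not known.

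Genes beside the receptors in the RefSeq gene order served as a local reference. Kit lies between Pdgfra and Kdr, another receptor kinase, which was at 0.07 ± 0.18 with the inhibitor and 0.02 ± 0.09 in NUP98-JARID1A (limma adjusted p = 0.863 and 0.886). Kdr lay between 5.8 and 6.6 on the 10 arrays, near the array medians, and Pdgfra was not tested, so the reference for Kit is weak. Csf1r lies between Pdgfrb and Hmgxb3, at −0.18 ± 0.17 and 0.23 ± 0.13 (adjusted p = 0.569 and 0.173). Pan3, a subunit of a poly(A) nuclease and the neighbour of Flt3 on one side, was at −0.87 ± 0.31 with the inhibitor (adjusted p = 0.121) and lower in NUP98-JARID1A at −1.26 ± 0.24 (adjusted p = 0.00384). Its log2 intensity was 11.24, 11.38, 11.42 and 11.19 in untreated RH-RAS, 10.45 and 10.46 in treated RH-RAS, 10.73 in MLL-AF9 and 9.41, 10.47 and 10.26 in NUP98-JARID1A. As for Flt3, all untreated RH-RAS arrays lay above all others. The 4 probe sets of Pan3 had a Pearson r of 0.85 to 0.93 with Flt3 over the 10 arrays, which share the same libraries.

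The genes most like each receptor were taken as the 5 with the highest Pearson r over the 10 arrays among 11992 others. They were Fyco1, Snhg1, Alg2, Ptpre and Gas5 for Kit (r = 0.98 to 0.99), Cdc42bpa, Rag2, Trpa1, Plekha7 and Fam133b for Flt3 (0.98 to 0.99), and Tifa, Ms4a6d, Ms4a6b, Specc1 and Mpeg1 for Csf1r (0.98 to 0.99). Fyco1, an adaptor of vesicle transport, was at −1.54 with the inhibitor and 1.55 in NUP98-JARID1A, beside −1.98 and 1.68 for Kit. Rag2, a recombinase subunit of lymphoid progenitors, was at −2.20 and −3.87, further from 0 than Flt3 in both. Ms4a6d and Mpeg1, genes of macrophages, were at 5.56 and 3.49 and at 1.55 and 1.03. Between the members themselves r was −0.52 for Kit and Flt3, −0.08 for Kit and Csf1r, −0.70 for Flt3 and Csf1r, and 0.86 for Kit and Csf1. These are descriptions of 10 arrays in 4 groups.

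Transcription factors known to act on the receptor genes were counted from a fixed list of 22, of which 21 were tested. With the inhibitor 6 rose, 5 fell and 10 did not pass, with a median of 0.15, where 12.0% of all genes tested were called. Klf4, a factor of monocyte differentiation, rose by 4.57 ± 0.32 (limma adjusted p = 0.00146), Irf8, another, by 1.80 ± 0.33 and Mitf, a factor of mast cells and osteoclasts, by 1.63 ± 0.32 (adjusted p = 0.0160 and 0.0198). Spi1, which encodes PU.1, rose by 1.21 ± 0.12 (adjusted p = 0.00350). Among those that fell, the immediate early gene Egr1 fell by 2.45 ± 0.48 (adjusted p = 0.0197, but 0.0562 when blocked on cell line). The homeobox genes Hoxa10 and Hoxa9 were lower at −2.04 ± 0.17 and −1.82 ± 0.13 (limma adjusted p = 0.00293 and 0.00156). Meis1 and Myb, which also sustain progenitors, were lower at −1.33 ± 0.13 and −1.03 ± 0.11 (adjusted p = 0.00354 and 0.00380).

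In NUP98-JARID1A 8 of the 21 factors were higher, 4 lower and 9 did not pass, with a median of 0.23. As 51.0% of all genes tested were called, these counts are not a result about the list. Without untreated line 4 the counts were 9 and 5, as Irf8 (0.59, adjusted p = 0.103) and Hoxa9 (−0.31, 0.0632) then passed in limma (adjusted p = 0.00706 and 0.00426). Mitf was higher by 3.11 ± 0.25, the myeloid factor Cebpa by 2.37 ± 0.27 and the adaptor Lmo2 by 1.92 ± 0.21 (limma adjusted p = 9.6e-05, 3.8e-04 and 3.6e-04). Spi1 was higher by 1.55 ± 0.09 (adjusted p = 2.5e-05). The lower ones included Egr1 at −1.91 ± 0.49, the ETS factor gene Fli1 at −1.79 ± 0.21 and Klf4 at −1.32 ± 0.32 (adjusted p = 0.0136, 4.1e-04 and 0.0118). Klf4 was 5.32, 5.65, 5.41 and 6.72 in untreated RH-RAS, 9.70 and 10.17 in treated RH-RAS, 7.43 in MLL-AF9 and 4.59, 4.33 and 4.45 in NUP98-JARID1A. Klf4 was thus highest in treated RH-RAS and lowest in NUP98-JARID1A. Untreated lines 1 to 3 and the NUP98-JARID1A lines lay below their array medians, so the difference between these is one of dim values. The part of Klf4 in the receptor levels was not tested. Myb and Meis1 were at 0.00 ± 0.09 and −0.02 ± 0.11 and did not pass (adjusted p = 0.992 and 0.917).

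**Figure D4:**
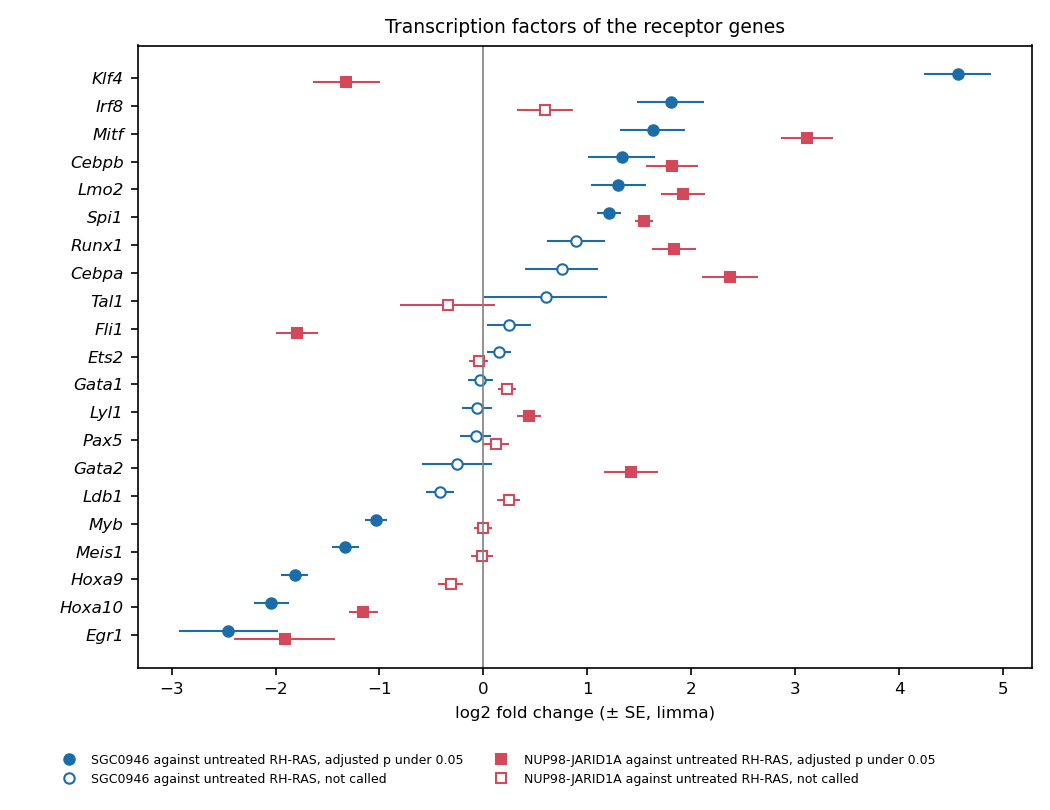
Log2 fold change (x axis, ± SE, limma) of the 21 tested transcription factors of the receptor genes (rows), with circles for SGC0946-treated against untreated RH-RAS lines 1 and 3, squares for NUP98-JARID1A against untreated RH-RAS and filled symbols for an adjusted p under 0.05. Klf4 lies at 4.57 and −1.32, Spi1 at 1.21 and 1.55, and Hoxa9 at −1.82 and −0.31, the last of these not called with all 4 untreated lines but called without line 4.

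Signal transducers act below the receptors. With the inhibitor, of 22 tested, 4 rose, 1 fell and 17 did not pass (median 0.08), where 12.0% of all genes were called. The fit blocked on cell line left 2 higher. The docking protein gene Gab2 rose by 1.45 ± 0.25, the PI3-kinase gene Pik3cb by 1.13 ± 0.27 and Stat5a by 0.72 ± 0.16 (limma adjusted p = 0.0145, 0.0382 and 0.0277). Pik3cb and Stat5a missed the threshold in that fit (adjusted p = 0.0650 and 0.0586). The phospholipase gene Plcg1 fell by 1.06 ± 0.14 (adjusted p = 0.00632). In NUP98-JARID1A 7 were higher, 6 lower and 9 did not pass (median 0.19), where 51.0% of all genes were called. Gab2 was higher by 2.40 ± 0.20, its relative Gab3 by 1.65 ± 0.18 and the adaptor gene Shc1 by 1.00 ± 0.16 (adjusted p = 1.2e-04, 3.1e-04 and 0.00190). Gab3 lay below the array median on every untreated RH-RAS array, so the size of its difference depends on a dim level. Pik3cd, the leukocyte PI3-kinase gene, was lower at −4.34 ± 0.16, the kinase gene Fyn at −2.67 ± 0.23 and the exchange factor gene Sos2 at −1.21 ± 0.27 (adjusted p = 5.1e-06, 1.3e-04 and 0.00805).

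Of 17 negative regulators tested, 3 rose with the inhibitor, 2 fell and 12 did not pass (median 0.05), where 12.0% of all genes were called. The feedback inhibitor Socs3 rose by 1.18 ± 0.26, Dok1 by 1.09 ± 0.26 and Sh2b3, an adaptor that restrains Kit signalling, by 0.69 ± 0.13 (limma adjusted p = 0.0300, 0.0365 and 0.0189). The ubiquitin ligase gene Cblb fell by 0.80 ± 0.14 (adjusted p = 0.0145). Dok2 fell by 0.81 ± 0.21 (adjusted p = 0.0496) and missed the threshold without untreated line 4 (0.0568) and when blocked on cell line (0.110), as Dok1 did when blocked (0.0568). In NUP98-JARID1A 5 were higher, 2 lower and 10 did not pass (median 0.07), where 51.0% of all genes were called. Sla was at 1.07 ± 0.17, Dok1 at 0.89 ± 0.20, Sla2 at 0.62 ± 0.22, Rasa1 at −0.57 ± 0.07 and Cblb at −0.44 ± 0.12 (limma adjusted p = 0.00152, 0.00904, 0.0485, 5.9e-04 and 0.0183). Without untreated line 4 the counts were 4 and 3, as Sla2 then missed the threshold (0.104) and Dok2 passed it (0.0385).

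Of 5 further ligands of these receptors, Il34, Pdgfc and Pdgfd were not tested. Pdgfa and Pdgfb did not pass in limma, with 0 at an unadjusted p under 0.05, at −0.02 and −0.13 with the inhibitor and 0.09 and −0.03 in NUP98-JARID1A. Among 21 tested receptor tyrosine kinases of other classes, limma called 0 with the inhibitor (median 0.03), where 12.0% of all genes were called. Of these kinases 2 had an unadjusted p under 0.05, and 1, Epha2, was called without untreated line 4 (adjusted p = 0.0497). Several, like Flt4 and Ephb4, averaged close to the array medians, where changes are understated. In NUP98-JARID1A 2 were higher, 3 lower and 16 did not pass (median 0.00), where 51.0% of all genes were called. Met, the hepatocyte growth factor receptor gene, was higher by 5.65 ± 0.20 and Igf1r, the receptor gene of insulin-like growth factor, by 2.74 ± 0.27 (adjusted p = 4.9e-06 and 2.2e-04). Met lay below the median of every RH-RAS array and entered the test through the MLL-AF9 and NUP98-JARID1A arrays, so it had to differ and its size depends on a level near background. Epha2 was lower at −1.32 ± 0.27, Tyro3 at −0.58 ± 0.13 and Ret at −0.38 ± 0.07 (adjusted p = 0.00546, 0.00879 and 0.00400). Ret lay above the array median only on the RH-RAS arrays and entered the test through them. All its values were close to the medians, so its call is not a result.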

How the data were processed

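Per the submitters' processing notes, the authors made the deposited log2 intensities with RMA, whose version is not given in the sources used here. They were used without further normalisation. RMA makes no call of presence and flattens differences near background, so changes of dim probe sets are understated. Precision is limited by the number of arrays. Of 45101 probe sets, 34958 had 1 gene symbol, 932 had several and 9211 were not listed. RefSeq's gene table (GRCm38.p6) held the Entrez identifier of 99.4% of those with 1 symbol and served for names and gene order, and RefSeq promoters came from the same build.

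For each gene the brightest probe set by mean over the 10 arrays was kept, and it was tested if 2 or more arrays had it above their median (11993 genes). Tests were two-sided, by lmFit and eBayes of limma 3.58.1 under R 4.3.3, with Benjamini-Hochberg adjusted p over all genes (or, for single probe sets, over all probe sets) and a threshold of 0.05. The inhibitor effect came from a fit of 10 arrays with 5 coefficients, as treated minus untreated lines 1 and 3. NUP98-JARID1A was set against RH-RAS in the 8 arrays without inhibitor. Treated and untreated lines 1 and 3 are the same cell lines, so the line pairs them, and their deviations from the group means correlated at 0.292. The fit with this block is an alternative, in which each RH-RAS line is a block and the NUP98-JARID1A lines keep their group mean. The named genes were all members, up to 3 genes each way per list with the largest change, the receptors' neighbours and the 5 genes most like Kit, Flt3 and Csf1r, to which Spi1, Meis1 and Myb were added after their values were seen. The members and lists were chosen with earlier results of these data known.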

Additional observations from a re-analysis of the deposited data

Results flagged for a closer look

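Among the 19 probe sets of the members, 5 had 1 untreated RH-RAS line far from the other 3, and in each of the 5 that was line 4. Dixon's test flags about 1 in 20 groups by chance, and probe sets of 1 gene are not independent. Csf1r was at 10.13, 8.75 and 8.32 in line 4 on probe sets 1419872_at, 1419873_s_at and 1423593_a_at, above lines 1 to 3. Pdgfrb on 1436970_a_at was at 3.49 and Csf1 on 1448914_a_at at 5.47 in line 4, below lines 1 to 3. The mean of the monocyte and macrophage markers was 8.46 in line 4 and at most 7.34 in lines 1 to 3.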

How the results depend on the processing

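The alternatives were another probe set rule, other filters, median centring, an intensity trend, other controls or arrays in the fit, the replicate block and leaving out each array. None of the 5 tested members changed direction under any of them. Where probe sets were tested singly, each member was followed by the probe set of the main fit, so its sign there was fixed. The probe sets of Csf1 differed in sign with the inhibitor, as given above. Pdgfrb gave no value under the filter of 5 arrays, which it missed. Values without a filter by probe set, and list counts without untreated line 4, were chosen after seeing the data. With the inhibitor, genes called moved from 1434 to 844 with the replicate block and to 2745 with the RH-RAS arrays alone. The block changed no call of a member. Flt3 passed with all 4 untreated lines as the control (−0.99, adjusted p = 0.0410) and with the RH-RAS arrays alone (−0.96, 0.00229). Leaving out 1 array gave 0 to 3 members called, 28 to 1855 genes called, Kit at −2.08 to −1.88, Flt3 at −1.04 to −0.88 and Csf1r at 4.82 to 4.99. In NUP98-JARID1A 4 or 5 members were called under each alternative and 4938 to 6768 genes. The line numbers do not pair these lines with RH-RAS lines (correlations of −0.05, −0.02 and 0.07), and a replicate block on them gave 4938 calls in place of 6113. RMA gives no signal over background, so no level of Pdgfra or Kitl could be called absent.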

Other observations

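Met and Igf1r, receptor kinase genes of other classes, were high in the MLL-AF9 array as well as in NUP98-JARID1A. Met was at 4.01, 3.72, 3.60 and 4.07 in untreated RH-RAS lines 1 to 4, 3.99 and 3.87 in treated lines 1 and 3, 10.14 in MLL-AF9 and 9.79, 9.66 and 9.04 in NUP98-JARID1A lines 1 to 3. Igf1r was between 5.96 and 6.26 on the 6 RH-RAS arrays, at 10.06 in MLL-AF9 and at 9.61, 8.35 and 8.77 in NUP98-JARID1A. For both genes every RH-RAS array lay below every other array.

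Fyn and Pik3cd, which act below Kit and Flt3, differed in where MLL-AF9 stood. Fyn was at 7.46 in MLL-AF9, inside the NUP98-JARID1A range of 6.66 to 7.58 and below the untreated RH-RAS lines at 9.48 to 10.07. Pik3cd was at 12.09 in MLL-AF9, near the untreated RH-RAS lines at 12.39 to 12.57, while the NUP98-JARID1A lines were at 7.77, 8.50 and 8.22. MLL-AF9 is 1 array, so these positions have no replicate.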
